A study of Mus musculus with 8 samples.

Results

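The circadian clock genes Per1, Per2, Per3, Cry1, Cry2, Arntl and Clock and the PAR bZIP genes Dbp, Tef and Hlf were examined in bulk RNA-seq of mouse kidney. The 10 genes were chosen by name, and a gene was used when its row of the deposited count table held 1 count for each of the 8 named libraries. Of the 10 genes, 5 had such a row: Cry1, Arntl, Clock, Dbp and Tef. The rows of Per1, Per2, Per3, Cry2 and Hlf held 10 counts, which could not be assigned to the 8 libraries, so these 5 genes have no value here. Usable rows numbered 35880 of 53715. The kidneys came from wild-type mice, male C57/BL6J by the study's methods. The 4 control mice received saline and the 4 cisplatin mice a single intraperitoneal dose of cisplatin, a platinum drug that injures the kidney tubule. All kidneys were taken at the single time of 72 h after injection, and the hour of the day is not given in the sources used here.

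The mammalian clock is a feedback loop of transcription factors that runs in nearly every cell, kidney tubule cells included. CLOCK and BMAL1, the product of Arntl, pair up and bind E-box sequences, where they switch on the Per and Cry genes. PER and CRY proteins then return to the nucleus and block that pair, so the positive and negative arms peak at different times of the day. The same pair switches on Dbp, and DBP, TEF and HLF, the PAR bZIP factors, bind D-box sequences of genes for detoxification and metabolism. In the kidney the clock is known for its daily control of salt and water transport. With a single time after injection, a change in mean level, in rhythm or in its timing cannot be told apart. Whether all kidneys were collected at the same hour is not given either, so a difference in hour between libraries cannot be told apart from these.

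Per library, the total count over the usable rows ranged from 10953338 to 16701599, so 3 counts corresponded to between 0.180 and 0.274 CPM (the count scaled to a fixed library total). Levels below are CPM after TMM normalization, a scaling that assumes most genes keep their level. The second principal component, with 15.96% of the variance, set control 5, cisplatin 4 and cisplatin 6 apart from the other 5 libraries (below, the second library set against the first). The split was the same when the 5 members were left out of the component, though 5 of 9141 genes could hardly have altered it. Cisplatin 1 and 3, both of the first set, had at most 3 counts of the Y-linked genes Kdm5d and Eif2s3y, where the other 6 libraries had at least 274, although the methods state male mice. In both groups all 10 proximal tubule markers examined were detected in every library, as the labelled tissue would have. Their summed level was 22235 to 32716 CPM in controls and 666 to 2312 CPM after cisplatin, and all 10 were called lower. Both fibroblast markers tested were called higher, with a sum of 32.0 to 139 CPM in controls and 208 to 983 CPM after cisplatin. Of 7 leukocyte markers 4 were called higher and 1 lower, with sums of 80.8 to 144 CPM and 63.8 to 146 CPM, and 2 of them were at 0 in some library. In whole tissue, fewer cells of a type and less RNA per cell cannot be told apart, and the part of these shifts in the results below was not tested.

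A gene was called when its adjusted p was below 0.05 and its log2 fold change reached 1 in size. Of the 5 measured members 1 was higher (Cry1), 2 were lower (Dbp and Tef) and 2 were not called (Arntl and Clock). Over all 9141 genes tested 34.9% were called, 19.2% as higher and 15.7% as lower, and 5 members are too few to set their share against it. The median log2 fold change of the 5 members was -0.14, beside 0.08 over all genes tested. The 3 called members were also those whose groups did not overlap, as was so for 46.3% of all genes.

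Cry1 encodes cryptochrome 1, a strong repressor of the CLOCK and BMAL1 pair, and it rose 6.48-fold in the cisplatin-treated kidneys. It had 5.76, 6.78, 5.38 and 3.30 CPM in control 1, 2, 3 and 5, from 42 to 85 counts. After cisplatin it had 36.8, 29.4, 35.5 and 36.1 CPM in libraries 1, 3, 4 and 6, from 455 to 809 counts. Every cisplatin-treated kidney lay far above every control, and the treated kidneys lay close together. Means were 5.31 ± 1.46 CPM in controls and 34.4 ± 3.42 CPM after cisplatin (SD, n = 4 each). The log2 fold change was 2.70 (standard error, SE, 0.24, quasi-likelihood adjusted p = 2.32e-05 in edgeR). Within the first library set it was 2.41 (adjusted p = 1.57e-05, edgeR), and without the cisplatin libraries that lack Y-linked counts it was 2.76 (adjusted p = 0.000134, edgeR). With each library left out in turn it lay between 2.51 and 2.83. The spread between controls, a coefficient of variation of 27.5%, exceeded the 12.3% that counting alone gives at these counts. Cry1 (ENSMUSG00000020038) lies on the minus strand of chromosome 10 from 85131700 to 85185064 of GRCm38, and no other annotated gene overlaps it.

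**Figure D1:**
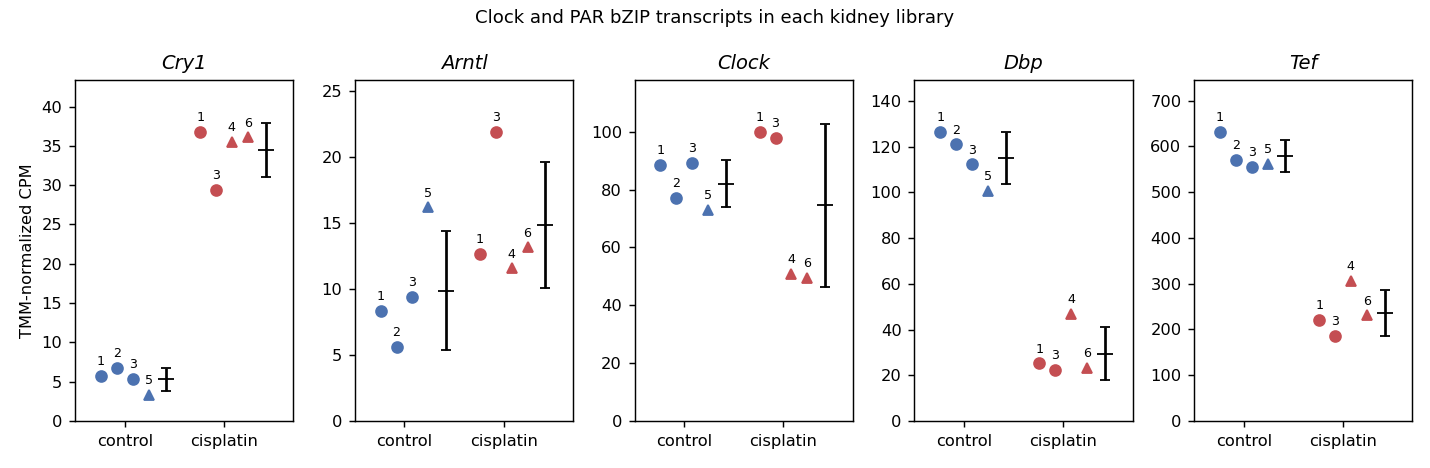
TMM-normalized CPM (vertical axis, starting at 0) of Cry1, Arntl, Clock, Dbp and Tef in each kidney library, controls in blue and cisplatin in red. Numbers are the replicate numbers of the labels, triangles mark the second library set, and the black bar gives the mean with its SD over 4 libraries. Cry1 is above 29 CPM in every cisplatin library and below 7 CPM in every control, Dbp and Tef are lower in every cisplatin library, and Clock in the cisplatin group splits by library set.

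The promoter of Cry1 is shown because it holds the letters of both E-box types, the kind of element that the clock's positive arm binds. The 250 bases before the RefSeq start site were taken from the GRCm38.p6 table, at chr10:85185055-85185304 on the minus strand. Capitals mark an E'-box match, read on the other strand as CACGTT, and an E-box match, CACGTG.

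Cry1: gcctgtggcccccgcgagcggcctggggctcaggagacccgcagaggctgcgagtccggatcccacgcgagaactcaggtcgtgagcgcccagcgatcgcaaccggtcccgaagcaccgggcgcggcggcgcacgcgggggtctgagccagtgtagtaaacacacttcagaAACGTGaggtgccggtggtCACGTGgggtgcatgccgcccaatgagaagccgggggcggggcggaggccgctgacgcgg

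The E-box lay from 60 to 55 bases before the start and the E'-box from 79 to 74 bases before it. CACGTG occurred in 6.02% of the 32851 promoter windows of the same length and CACGTT on either strand in 3.85%. The D-box letters TTATGTAA or TTACGTAA, found in 0.931% of windows, the cyclic AMP response element TGACGTCA, in 1.55%, and the ROR core TAGGTCA, in 2.23%, had no match in this window. Both strands were searched for every motif. A match of letters is a description of the sequence only.

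Dbp, a PAR bZIP gene with a deep daily rhythm in many tissues, fell 3.91-fold in the cisplatin-treated kidneys. The 4 controls held 127, 121, 112 and 101 CPM in control 1, 2, 3 and 5, from 1279 to 1517 counts. After cisplatin the levels were 25.2, 22.4, 47.0 and 23.3 CPM in libraries 1, 3, 4 and 6, from 294 to 642 counts. The groups did not overlap, and cisplatin 4 stood above the other 3 treated kidneys. The means were 115 ± 11.3 CPM and 29.5 ± 11.7 CPM (SD, n = 4 each), and the log2 fold change was -1.97 (SE 0.25, edgeR adjusted p = 0.000185). It was -2.39 within the first library set (adjusted p = 3.15e-06, edgeR) and -2.29 without cisplatin 4 (adjusted p = 2.16e-05, edgeR). Without the libraries that lack Y-linked counts it was -1.70 (adjusted p = 0.00179, edgeR).

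Dbp (ENSMUSG00000059824) lies on the plus strand of chromosome 7 from 45705088 to 45710203. Its exons share 539 bases with those of Sphk2, a sphingosine kinase gene on the opposite strand, and whether counting used the strand is not given in the sources used here. Sphk2 had 87.2 ± 20.3 CPM in controls and 62.0 ± 3.22 CPM after cisplatin (SD, n = 4 each) and was not called, at -0.49 on the log2 scale (adjusted p = 0.0403, edgeR). The part of shared reads in the value of Dbp was not tested.

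Tef, which encodes thyrotroph embryonic factor, was the most abundant member and fell 2.46-fold. Its controls held 632, 569, 556 and 562 CPM, from 7134 to 7326 counts, a coefficient of variation of 6.06% where the median gene with at least 1 CPM had 19.7%. The cisplatin-treated kidneys held 220, 185, 305 and 231 CPM in libraries 1, 3, 4 and 6, from 2908 to 4837 counts. Every treated kidney lay below every control, and cisplatin 4 was again the highest of the treated kidneys. Means were 580 ± 35.1 CPM and 235 ± 50.4 CPM (SD, n = 4 each), with a log2 fold change of -1.30 (SE 0.18, edgeR adjusted p = 0.000316). Within the first library set it was -1.59 (adjusted p = 4.03e-05, edgeR). Scaled by the total count alone it was -0.75 (adjusted p = 0.00353, edgeR), under the required size. Tef (ENSMUSG00000022389) lies on the plus strand of chromosome 15 from 81802421 to 81826863. The antisense gene Gm17597 shares 193 exon bases with it and had at most 43 counts in any library.

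The promoters of Dbp and Tef are shown beside that of Cry1 because all 3 genes are known targets of the clock. They are the 250 bases before the RefSeq start sites of GRCm38.p6, on the plus strand: chr7:45704997-45705246 for Dbp, and chr15:81802423-81802672 and chr15:81811164-81811413 for the pair of start sites of Tef. The RefSeq starts lie further in than the gene bounds of the count table given above. Both Tef windows therefore lie within the bounds of Tef, and the Cry1 and Dbp windows partly within theirs. Capitals again mark the E-box CACGTG.

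Dbp: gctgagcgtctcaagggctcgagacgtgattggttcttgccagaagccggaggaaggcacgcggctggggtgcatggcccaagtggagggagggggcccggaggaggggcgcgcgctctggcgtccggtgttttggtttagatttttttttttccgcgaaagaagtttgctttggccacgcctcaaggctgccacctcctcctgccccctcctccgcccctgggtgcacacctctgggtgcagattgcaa

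Tef, upstream start: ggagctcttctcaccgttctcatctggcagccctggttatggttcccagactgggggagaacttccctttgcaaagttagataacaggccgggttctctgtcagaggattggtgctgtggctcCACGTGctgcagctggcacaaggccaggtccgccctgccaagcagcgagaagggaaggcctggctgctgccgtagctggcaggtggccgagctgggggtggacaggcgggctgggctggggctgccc

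Tef, downstream start: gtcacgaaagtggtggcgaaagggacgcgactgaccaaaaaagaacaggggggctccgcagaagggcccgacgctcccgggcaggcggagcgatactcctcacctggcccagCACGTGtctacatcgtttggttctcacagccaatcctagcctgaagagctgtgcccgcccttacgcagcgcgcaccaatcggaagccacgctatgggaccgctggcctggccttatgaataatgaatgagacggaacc

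Both Tef windows held 1 E-box, from 127 to 122 bases and from 138 to 133 bases before the start. The Dbp window held none of the letters searched, which says nothing of elements elsewhere in the gene. The E-box letters thus occurred in the windows of Cry1 and Tef, and the E'-box letters in that of Cry1 but not of Dbp or Tef. Whether these matches bear on the levels was not tested.

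Arntl encodes BMAL1, the partner of CLOCK, and did not pass the test. Controls 1, 2, 3 and 5 had 8.32, 5.58, 9.40 and 16.2 CPM, from 70 to 206 counts, and cisplatin 1, 3, 4 and 6 had 12.7, 21.9, 11.6 and 13.2 CPM, from 158 to 399 counts. All 4 treated kidneys lay above control 1, 2 and 3, and the overlap of the groups came from control 5 alone. The means were 9.88 ± 4.51 CPM and 14.8 ± 4.78 CPM (SD, n = 4 each). The log2 fold change was 0.59 with a 95% interval from -0.18 to 1.35 (adjusted p = 0.180, edgeR), so a change of either 0 or 1 lay inside it. Without control 5 it was 0.92 (adjusted p = 0.0361, edgeR). Within the first library set, whose treated kidneys are cisplatin 1 and 3, it was 1.10 (adjusted p = 0.0141, edgeR) and was called. Without those cisplatin libraries, which lack Y-linked counts, it was 0.34 (adjusted p = 0.469, edgeR). Without cisplatin 3 alone it was 0.33 (adjusted p = 0.438, edgeR). In the second set the mean of both treated kidneys lay below the control by 0.39 on the log2 scale, a value that rests on 1 control and has no test. Arntl (ENSMUSG00000055116) lies on the plus strand of chromosome 7 from 113207465 to 113314126, and an antisense gene shares 33 exon bases with it.

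Clock encodes the partner of BMAL1 and did not pass the test either, but its treated kidneys fell into separate levels. Controls 1, 2, 3 and 5 had 88.6, 77.2, 89.2 and 73.0 CPM, from 928 to 1176 counts. Cisplatin 1 and 3 had 99.97 and 97.8 CPM, above every control, and cisplatin 4 and 6 had 50.8 and 49.5 CPM, below every control. The means, 82.0 ± 8.17 CPM and 74.5 ± 28.2 CPM (SD, n = 4 each), hide this split. The log2 fold change was -0.14 with a 95% interval from -0.70 to 0.43 (adjusted p = 0.683, edgeR). It was 0.16 within the first library set (adjusted p = 0.236, edgeR) and -0.70 without cisplatin 1 and 3 (adjusted p = 0.00505, edgeR), which is under the required size. In an edgeR fit with the interaction of treatment and library set, chosen after the data were seen, the log2 fold change of Clock in the second set minus that in the first was -0.76. The same difference was -1.54 for Arntl, 0.97 for Cry1, 0.82 for Dbp and 0.46 for Tef. These differences are descriptions with no test, since the sets were read from these data and the second has 1 control. Among treated kidneys the library set and the lack of Y-linked counts cannot be told apart. Clock (ENSMUSG00000029238) lies on the minus strand of chromosome 5 from 76209868 to 76304792.

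**Figure D2:**
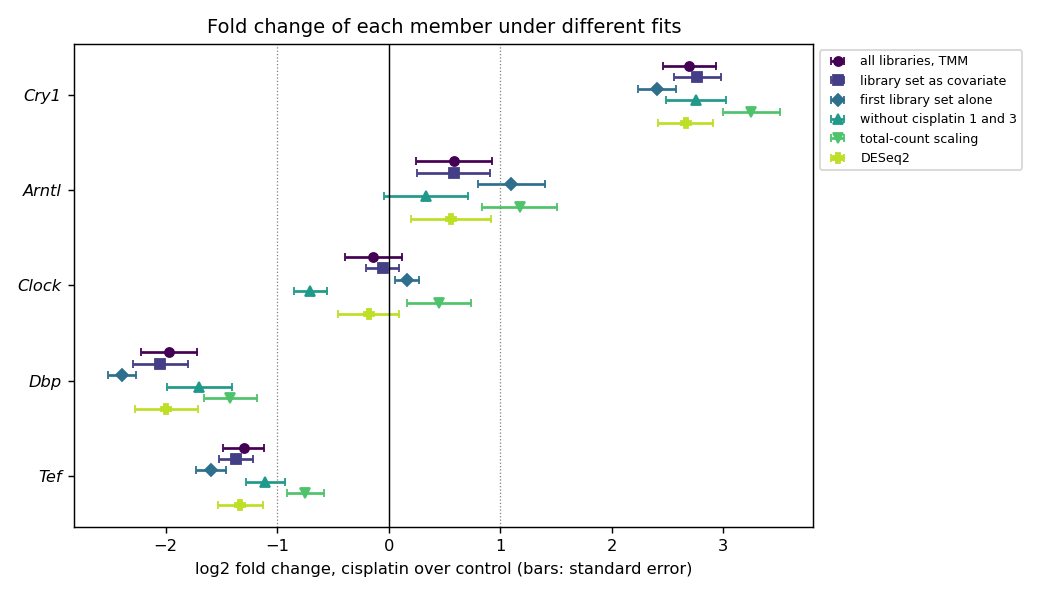
Log2 fold change of cisplatin over control (horizontal axis, bars are standard errors) for each member under 6 fits, named in the legend. Dotted lines mark changes of -1 and 1. Cry1 stays right of 2 and Dbp left of -1 in all 6, Tef moves from -1.59 to -0.75, and Clock lies on either side of 0.

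The promoter windows of Arntl and Clock held none of the letters searched, which says nothing of elements elsewhere in these genes, past the start site included. The window of the upstream start of Arntl, 250 bases at chr7:113207215-113207464 on the plus strand of GRCm38.p6, is shown as an example without a match.

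Arntl: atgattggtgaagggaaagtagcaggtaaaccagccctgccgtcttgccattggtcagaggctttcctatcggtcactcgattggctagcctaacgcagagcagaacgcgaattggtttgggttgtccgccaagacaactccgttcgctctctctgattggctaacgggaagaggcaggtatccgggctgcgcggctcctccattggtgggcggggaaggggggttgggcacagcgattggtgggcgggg

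Count ratios within a library do not depend on how libraries are scaled, and they set the arms of the clock against each other. The ratio of Dbp to Arntl counts was 15.2, 21.7, 11.9 and 6.21 in control 1, 2, 3 and 5, and 1.98, 1.02, 4.06 and 1.77 in cisplatin 1, 3, 4 and 6. The groups did not overlap, and their medians differed 7.23-fold. The ratio of Cry1 to Dbp moved most of those examined, from between 0.0328 and 0.0560 in controls to between 0.755 and 1.55 after cisplatin. Cry1 thus went from far fewer counts than Dbp to a similar number. The ratio of Cry1 to Arntl was 0.204 to 1.21 in controls and 1.34 to 3.07 after cisplatin, and that of Tef to Arntl 34.7 to 102 and 8.45 to 26.4. Cry1 to Clock was 0.0453 to 0.0878 in controls and 0.300 to 0.729 after cisplatin. The ratio of Dbp to Tef was 0.179 to 0.212 and 0.101 to 0.154, lower after cisplatin in every library. These 6 ratios did not overlap between the groups and were not tested. Each contains Cry1, Dbp or Tef, whose own groups did not overlap, as was so for 46.3% of all genes. The ratios thus partly restate those members, and the share over ratios of other gene pairs was not computed. The ratio of Clock to Arntl overlapped, with 4.50 to 13.8 in controls and 3.76 to 7.88 after cisplatin.

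**Figure D3:**
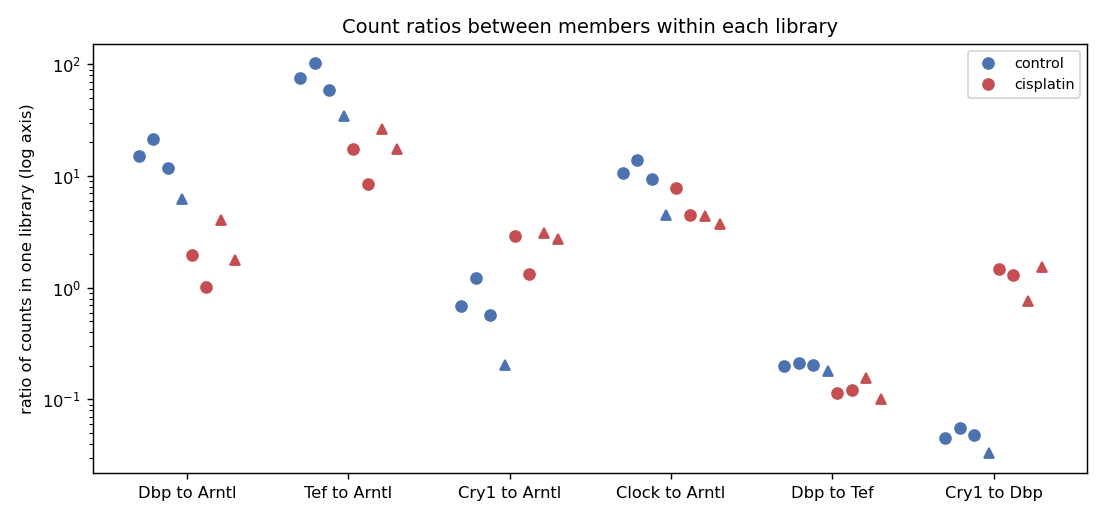
Ratio of the counts of a pair of members in each library (vertical log axis), controls in blue, cisplatin in red and the second library set as triangles. The groups are apart for every pair but Clock to Arntl, and control 5 is the control nearest to the cisplatin libraries in the Dbp to Arntl ratio.

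Levels of different genes were compared per kilobase of the gene length in the table. In controls the order was Tef (73.7 ± 4.47 CPM per kilobase, SD, n = 4), Dbp (38.5 ± 3.79), Clock (5.97 ± 0.595), Cry1 (1.59 ± 0.437) and Arntl (1.31 ± 0.599). Cry1 and Arntl did not differ beyond their spread, and the other neighbours were apart by more than it. After cisplatin the order was Tef (29.9 ± 6.41 CPM per kilobase), Cry1 (10.3 ± 1.02), Dbp (9.84 ± 3.93), Clock (5.43 ± 2.05) and Arntl (1.97 ± 0.636). Cry1 had moved from the level of Arntl to that of Dbp, and both lay above Clock in each treated library, while Cry1 and Dbp did not differ beyond their spread.

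**Figure D4:**
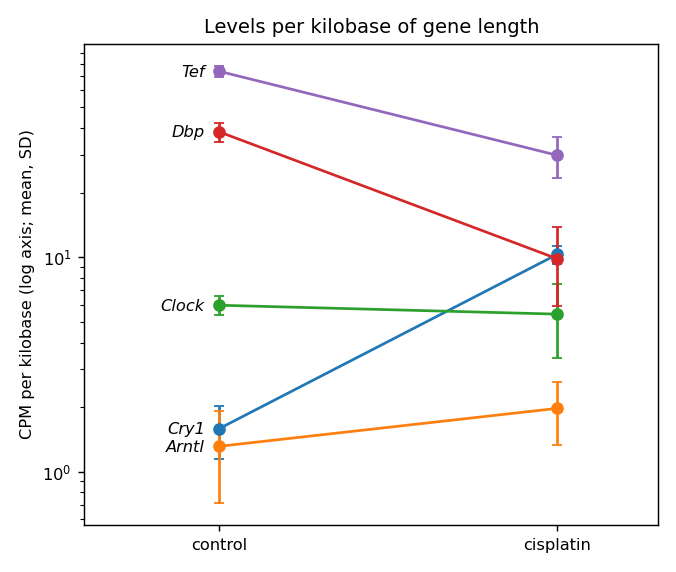
Mean CPM per kilobase of gene length (vertical log axis, bars are SD over 4 libraries) of the 5 members in control and cisplatin-treated kidneys. Cry1 climbs from 1.59 to 10.3 while Dbp drops from 38.5 to 9.84, so their lines cross, and Tef is highest in both groups.

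Control 5 lay at the edge of the controls in several clock genes. It had the lowest Cry1, Dbp and Clock and the highest Arntl, while its Tef level lay within the range of the other controls. The clock repressor gene Ciart had 5.98 CPM in control 5 and 17.9 to 38.0 CPM in the others, and Noct, a rhythmic phosphatase gene also called nocturnin, had 24.9 CPM against 62.7 to 92.4 CPM. Over all tested genes control 5 was the lowest or the highest control in 74.8%, against 32.8%, 50.3% and 40.9% for control 1, 2 and 3.

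Of 38 other genes of the clock machinery, which include its nuclear receptors, kinases and ubiquitin ligases, 25 had no usable row, among them Npas2, Nr1d1, Nr1d2, Rora, Bhlhe40, Bhlhe41 and Nfil3. The other 13 were tested, and 1 was called higher, 3 were called lower and 9 were not called. Over all genes 34.9% were called, 19.2% as higher and 15.7% as lower. The median log2 fold change of the 13 was 0.15 beside 0.08 over all genes. Arntl2, a paralog of Arntl whose product also pairs with CLOCK, rose from 2.55 ± 0.882 to 7.11 ± 2.19 CPM (SD, n = 4 each), which is 1.48 on the log2 scale (adjusted p = 0.00723, edgeR). Fbxl21, a ubiquitin ligase subunit gene that acts on cryptochromes, fell from 7.53 ± 0.999 to 1.75 ± 0.350 CPM (SD, n = 4 each), which is -2.10 on the log2 scale (adjusted p = 0.000168, edgeR). Prkaa2, a catalytic subunit of AMP-activated kinase, fell 3.01-fold (log2 fold change -1.59, adjusted p = 0.000672, edgeR). Usp2, a clock-driven deubiquitinase gene, fell 2.41-fold (-1.27, adjusted p = 0.0119, edgeR), and by 0.69 with total-count scaling, where it was not called. In these 4 genes the groups did not overlap, as was so for 7 of the 13 tested and for 46.3% of all genes.

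Ciart had 28.4, 38.0, 17.9 and 5.98 CPM in control 1, 2, 3 and 5 and 12.4, 9.62, 24.01 and 26.5 CPM in cisplatin 1, 3, 4 and 6. Its treated kidneys split by library set, as those of Clock did but with the sets in the opposite order. Over all libraries its log2 fold change was -0.32 (adjusted p = 0.638, edgeR), and within the first set it was -1.41 (adjusted p = 0.00542, edgeR). The kinase gene Csnk1d, whose product phosphorylates PER proteins, had an adjusted p of 0.0139 (edgeR) but a log2 fold change of 0.55, under the required size.

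Known targets of the PAR bZIP factors were mostly out of reach. Of 18 listed, 11 had no usable row and 3 did not pass the filter on low counts. All 4 tested genes had a log2 fold change below 0, as had 46.8% of all genes. Their median was -0.63 beside 0.08 over all genes, and 1 was called, where 34.9% of all genes were. Por, the electron donor of cytochrome P450 enzymes, had a log2 fold change of -0.40 (adjusted p = 0.263, edgeR), Cyp4a10, a fatty acid hydroxylase, -0.45 (0.199) and the lipid-sensing receptor gene Ppara -0.81 (0.0596). Cyp2a4, a P450 gene so similar to Cyp2a5 that reads could be split between them, had 356, 740, 240 and 1189 CPM in controls and 6.69, 4.12, 111 and 205 CPM in cisplatin 1, 3, 4 and 6. Its log2 fold change of -2.95 passed narrowly (adjusted p = 0.0499, edgeR) and did not pass under 5 other settings tried, nor in 7 of the 8 fits that left out 1 library. The size also moved with the libraries: it was -6.42 within the first library set (adjusted p = 6.29e-05, edgeR), -5.25 with the library set as a covariate (adjusted p = 0.000421, edgeR) and -1.99 without the cisplatin libraries that lack Y-linked counts (adjusted p = 0.0312, edgeR), where it was still called. Those libraries had the lowest levels.

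Of 22 kidney genes with a known daily rhythm or clock control, 8 had no usable row and 14 were tested. Of these, 2 were called higher and 5 lower, where 34.9% of all genes were called, and the median log2 fold change was -0.54 beside 0.08 over all genes. Edn1, which encodes endothelin 1, a collecting duct peptide that restrains sodium uptake, rose from 2.72 ± 0.751 to 31.1 ± 3.65 CPM (SD, n = 4 each), which is 3.51 on the log2 scale (adjusted p = 5.28e-06, edgeR). Aqp2, the water channel of the collecting duct, had a log2 fold change of 1.54 (adjusted p = 0.0109, edgeR), with control 5 at 407 CPM overlapping the treated kidneys. Sodium transporter genes were among the 5 that fell: Slc12a3, the thiazide-sensitive cotransporter of the distal tubule, 10.3-fold (log2 fold change -3.36, adjusted p = 0.000265, edgeR) and Slc9a3, the sodium-proton exchanger of the proximal tubule, 3.83-fold (-1.94, adjusted p = 0.00402, edgeR). Pck1, a gluconeogenic enzyme of the proximal tubule, fell 8.01-fold (-3.001, adjusted p = 0.000781, edgeR). Scnn1a, the sodium channel subunit gene known as a target of PER1, had 350 ± 23.4 CPM and 406 ± 146 CPM (SD, n = 4 each, adjusted p = 0.515, edgeR). The proximal tubule markers had a median log2 fold change of -4.22. Slc12a3 is itself a distal convoluted tubule marker, and the sum of both tested markers of that segment was 1831 to 3004 CPM in controls and 119 to 446 CPM after cisplatin. That sum is nearly all Slc12a3, with 2204 ± 529 CPM in controls and 214 ± 145 CPM after cisplatin (SD, n = 4 each), so it mostly restates that gene. The other marker, Trpm6, was not called. Aqp2 is a collecting duct marker, and the 4 tested markers of that segment, Aqp2 included, summed to 501 to 832 CPM and 537 to 1146 CPM. Aqp2 itself made up much of that sum, with 216 ± 128 CPM in controls and 629 ± 214 CPM after cisplatin (SD, n = 4 each). Of the 4 markers only Aqp2 was called higher and 1 was called lower, and their median log2 fold change was -0.070. The part of these segments in the values above was not tested.

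**Figure D5:**
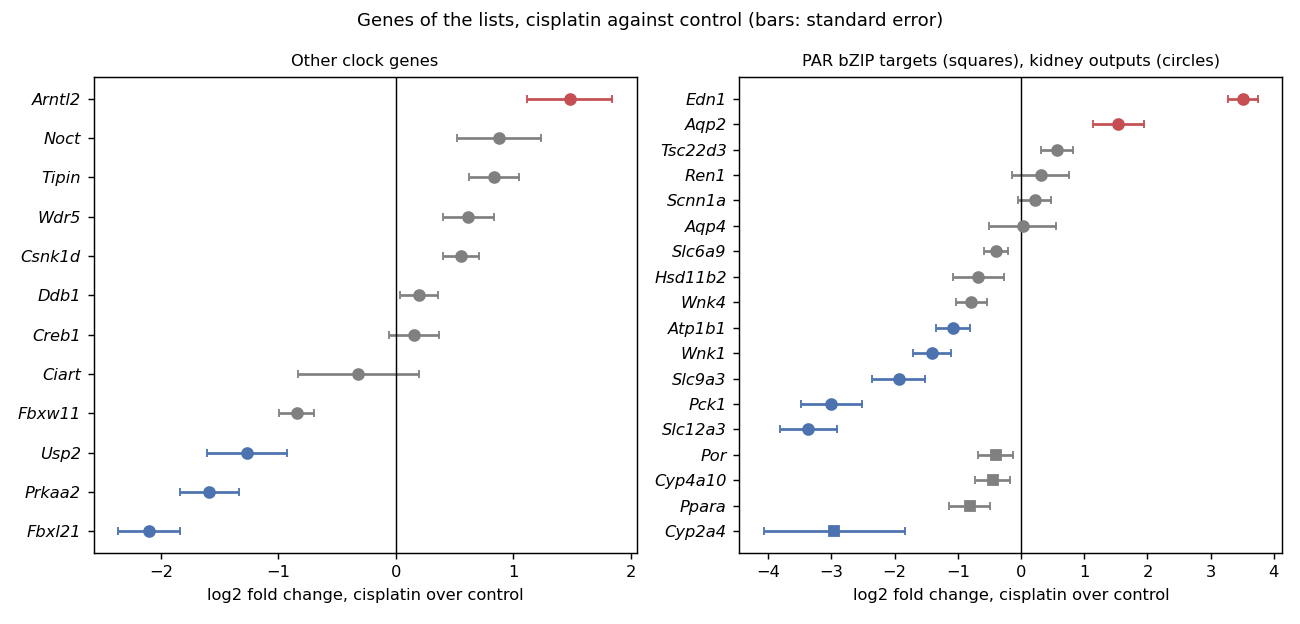
Log2 fold change (horizontal axis, bars are standard errors) of the tested genes of the clock list, all but 1, on the left and of PAR bZIP targets (squares) and kidney outputs (circles) on the right. Red genes were called higher, blue genes lower and grey genes were not called; Arntl2 and Edn1 head their panels, and Fbxl21 and Slc12a3 lie far to the left.

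Glucocorticoids reset clocks in peripheral tissues, so genes that answer to them were examined beside the members. Of 11 listed, 8 were tested, and 3 were called higher and 0 lower by edgeR. Over all genes 34.9% were called, 19.2% as higher and 15.7% as lower. An adjusted p under 0.05 by edgeR was reached by 6 of the 8, in both directions, as by 49.1% of all genes. The median log2 fold change of the 8 was 0.07, beside 0.08 over all genes. Fkbp5, a chaperone of the receptor, rose from 155 ± 40.9 to 542 ± 83.7 CPM (SD, n = 4 each), which is 1.80 on the log2 scale (adjusted p = 0.000164, edgeR). Mt1, which encodes a metallothionein and also answers to metals and injury, rose 17.99-fold (log2 fold change 4.17, adjusted p = 8.73e-06, edgeR). Mt2 rose from at most 0.550 CPM to between 7.20 and 26.6 CPM (adjusted p = 8.30e-05, edgeR). Tsc22d3 (log2 fold change 0.57, adjusted p = 0.0874, edgeR) and Dusp1 (-0.42, adjusted p = 0.451, edgeR) were not called. Per1, the clock gene that glucocorticoids induce directly, had no usable row.

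Genes with a pattern like that of a member were named by the smallest root mean square difference over the 8 libraries, in log2 CPM relative to the control mean. For Cry1 they were Dusp8 (difference 0.19), Ifrd1 (0.22) and 1110002J07Rik (0.22). For Tef they were Nus1 (0.14), Uqcrc2, a subunit of respiratory complex III (0.16), and Grsf1 (0.17), and for Clock Srgap2, Egfr and Adam17 (0.12 each).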

How the data were processed

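The authors aligned reads to GRCm38 with HISAT2, after cleaning with fastp per the labels, and deposited raw counts per gene without normalization. The labels describe a kit that marks the second strand and the methods another maker's kit; the counting tool, annotation release and strand setting are not given in the sources used here. Rows with 10 counts (17835 of 53715) were left out. No column of another sample was used. Coordinates of all 10 members were the same in GENCODE M21. The tests ran in edgeR 4.0.16 under R 4.3.3 (default expression filter, TMM, quasi-likelihood test, Benjamini-Hochberg over 9141 genes). DESeq2 1.42.0 was an alternative; the study used an earlier version of it. Standard errors are the log2 fold change over the square root of F, and intervals use the moderated degrees of freedom. CPM in the report is TMM-normalized, apart from the range that 3 counts correspond to; intervals and that floor cover, respectively, spread between libraries and counting error only. No libraries of 1 group were near-identical (chi-square per gene at least 15.1). The labels number the libraries and the study states 4 mice a group; no source ties a library to an animal, so p-values measure the spread between libraries. The members and lists were chosen with earlier results of these data known. Named genes were the members, up to 8 called genes of the clock list and up to 5 of each other list by absolute change, and a fixed set of clock genes, of which 1 is not reported here; Csnk1d, Noct, Por, Cyp4a10, Ppara, Scnn1a, Tsc22d3, Dusp1 and Sphk2 were added after their values were seen. In simulated counts edgeR recovered 81.8% of 192 genes changed by 2 on the log2 scale, with 12 unchanged genes called of 8977 tested. The simulated data held no library sets and a far smaller share of changed genes than the 34.9% called in the data. The simulation thus tests neither the assumption behind TMM nor the part of the sets. Promoters are RefSeq's (GRCm38.p6).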

Additional observations from a re-analysis of the deposited data

Results flagged for a closer look

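Among 54 groups of 4 libraries examined for a library apart, 6 were flagged, where chance flags about 5%. In the cisplatin group these were Dbp, with 47.0 CPM in cisplatin 4, Arntl, with 21.9 CPM in cisplatin 3, Mt1, with 2838 CPM in cisplatin 4, and the ratio of Clock to Arntl counts, 7.88 in cisplatin 1. Among controls they were Prkaa2, with 255 CPM, and Aqp2, with 407 CPM, both in control 5.

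The log2 fold change of Clock was listed by a cutoff on the adjusted p of an edgeR interaction fit, not by size. In that fit its estimate in the second library set minus that in the first was -0.76. The differences of Arntl (-1.54), Cry1 (0.97) and Dbp (0.82) were larger in size and were not listed. The sets were seen in the data, are not groups of the study, and the second holds 1 control, so that fit is no test of a difference between them.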

How the results depend on the processing

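Cry1 and Dbp kept their direction and their call under all 12 settings tried and without any single library. Scaling by the total count alone, which raised the median log2 fold change of all genes from 0.08 to 0.64, gave -0.75 for Tef (no longer called for size), 1.17 for Arntl (called), 0.45 for Clock and 0.20 for Ciart. Clock lay below that median. Total-count scaling also gave 3174 genes called higher and 803 lower, against 1754 and 1434, and 7 other clock genes called, against 4. With no expression filter the median of all genes was 0.39 over 15862 genes. Within the first library set Arntl reached 1.10 (called) and Clock 0.16. Without the cisplatin libraries that lack Y-linked counts Ciart was 0.16 and 5 glucocorticoid-responsive genes were called, against 3. Under a filter of 10 counts in each library 1101 genes were called higher. By adjusted p alone 8 other clock genes and 6 glucocorticoid-responsive genes passed. The count of PAR bZIP targets called, 1, was 0 with DESeq2 size factors, upper-quartile normalization, total-count scaling, the filter of 10 counts, and removal of the 10 most abundant and the mitochondrial genes, and lay between 0 and 1 with single libraries left out, 0 without any of the 4 controls or without cisplatin 1 or 3, while without cisplatin 4 it was 1 although Cyp2a4 itself did not pass (adjusted p = 0.0793, edgeR). With single libraries left out Clock lay between -0.32 and 0.018 (0.0075 without cisplatin 4, 0.018 without cisplatin 6) and Ciart between -0.65 and 0.041 (without control 2). In CPM without division by length Cry1 was place 5 and Arntl place 4 in controls, and Clock place 2, Cry1 place 3 and Dbp place 4 after cisplatin. Causes other than the settings' own construction were not tested.

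For the replicate block only numbers 1 and 3 occur in both groups, so its effects rest on those libraries. Both treated ones lack Y-linked counts. With this block Clock was 0.15 (adjusted p = 0.377), Arntl 0.93 (adjusted p = 0.00355) and Ciart -1.05 (adjusted p = 0.000480), all by edgeR. Cyp2a4 was -5.79 (adjusted p = 1.73e-10, edgeR) and Usp2 -0.999, just short of the required size. Without cisplatin 1 and 3 Clock was -0.70, Arntl 0.34, Ciart 0.16, Cyp2a4 -1.99 and Usp2 -1.83. The deviations of same-numbered libraries correlated across genes with r = 0.25 and r = 0.28, and those of other pairs of the first set with 0.15 to 0.36. So few pairs cannot decide whether same-numbered libraries share more than a number.

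The counts cover part of each library, and the 42 to 85 counts of Cry1 in controls are the fewest behind a called member.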

Other observations

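Some listed genes passed the adjusted p of edgeR but not the required size, and they are named here in view of their values. Nr3c1, which encodes the glucocorticoid receptor, had 163 ± 24.5 CPM in controls and 89.2 ± 19.4 CPM after cisplatin (SD, n = 4 each), which is -0.87 on the log2 scale (adjusted p = 0.00442, edgeR), and its groups did not overlap. Klf9, a glucocorticoid-induced and rhythmic transcription factor gene, was at -0.91 (adjusted p = 0.0162, edgeR), with groups that overlapped. Fbxw11, the ubiquitin ligase subunit gene that acts on PER proteins, was at -0.85 (adjusted p = 0.00135, edgeR), and Tipin, whose product binds TIMELESS, at 0.83 (adjusted p = 0.00984, edgeR). Neither of these overlapped between the groups.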
